A study of Mus musculus with 12 samples.

Results

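Constitutive distal regions were defined as stretches of open chromatin that carried an ATAC-seq peak in every one of 12 mouse CD4 T cell libraries and lay more than 1 kb from both ends of every protein-coding gene. Overlapping peaks (1 bp or more) from the 12 lists were joined, which gave 76882 merged regions on the mm10 build. A peak of every library was present in 21435 of them, and 12034 of these lay more than 1 kb from gene ends, which is 15.7% of all merged regions. The 1 kb was counted from the edge of the region, and counting from its midpoint gives 12809 regions. The regions were chosen by the measured presence of a peak in each library, so nothing that follows from presence was tested, and widths between groups were tested instead.

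ATAC-seq uses a transposase that cuts and tags accessible DNA, so a peak marks DNA that is not packed in nucleosomes. Open regions away from gene ends include enhancers and insulators, where transcription factors bind and act on promoters over a distance. A region open in regulatory and in conventional T cells alike can belong to what these cells share, such as the T cell programme and the housekeeping of the nucleus, although how far the opening extends can still differ between them.

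All cells were CD4 T cells of Balb/c mice, sorted on CD3 and CD4, in 6 groups of 2 libraries. In the transfer experiment, T cells with the transgenic 6.5TCR, which recognises influenza hemagglutinin (HA), were given to Aire-HA hosts, and bone marrow T cells were sorted on day 14. Donor Treg were transferred cells converted to regulatory T cells (CD45.1-CD45.2+, CD25+ and LAP+, LAP being the latency peptide of TGF-beta). Host pTreg and host tTreg were regulatory cells of the host (CD45.1+CD45.2+, CD25+CTLA4+), without and with Nrp1. The iTreg were induced in culture from cells labelled WT Balb/c and sorted as CD25+LAP+. Donor Tconv were transferred cells that had not converted (CD45.1-CD45.2+, CD25-), and host Tconv were conventional host cells labelled WT (CD45.1+CD45.2-, CD25-). The labels do not say whether libraries came from separate or pooled animals, so p-values measure only the spread between these libraries, which may be technical.

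The lists held between 28394 and 63207 peaks per library, with no read depth behind them given. All 8 T cell markers examined had a peak at a gene end in 12 of 12 libraries, 3 of 3 NK cell markers had none in any library, and of the B cell markers given here Cd79a had one in 4, Cd79b in 3, Ms4a1 in 1 and Pax5 in 0. Of 5 myeloid markers, Cebpa had such a peak in 12 libraries, Itgam in 6, Lyz2 in 2, and Csf1r and Mpo in 0. Of 4 erythroid markers, Klf1 and Epor had one in 12, and Gata1 and Hbb-bt in 0. The stem cell markers Flt3, Kit and Cd34 had one in 3, 2 and 2 libraries, Cd8b1 in 11 and Cd8a in 0. The part of other cell types in the results was not tested. Host tTreg replicate 1 and host Tconv replicate 1 had the shortest lists and the narrowest peaks of their groups. Among the 2431 distal regions open in 11 of 12 libraries, the missing library was host tTreg replicate 1 in 47.6% and host Tconv replicate 1 in 19.9%. Without these 2 libraries the rule kept 13818 regions.

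Some constitutive distal regions were starts of transcripts that lie inside a gene or outside protein-coding annotation. A RefSeq promoter window, 250 bases before to 50 after a transcript start in the GRCm38.p6 assembly, overlapped 1253 of the 12034 regions (10.4%), and for 817 of them the window was that of a protein-coding gene. The share was 1.79% in distal regions not open in every library and 75.7% in constitutive regions at gene ends. Between the first and last base that peaks of all 12 libraries covered lay 779 windows of 679 genes. Their median GC content was 63%, against 64.3% for windows in constitutive gene-end regions and 52.7% for all windows. The ETS motif CCGGAAG was found on either strand in 14.4% of these windows, in 24% of those in gene-end regions and in 8.86% of all windows. The RUNX motif TGTGGTT was found in 5.01%, 3.19% and 5.27% of the same sets, the CTCF motif in 3.59%, 2.75% and 2.43%, and the AP-1 motif TGANTCA in 5.39%, 3.27% and 7.81%, in the windows of 300 bases. A match describes letters and does not show that a factor was bound.

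The starts of Lck, Runx1 and Prdm1 are shown because a distance to gene ends alone would have called them distal. They were picked after their values were seen. Lck encodes the kinase that starts T cell receptor signalling, Runx1 a factor of T cell development, and Prdm1 the factor Blimp-1 of effector and regulatory T cells. Each line gives the 250 bases before the start, 5′ to 3′ on the gene's minus strand, and capitals mark an AP-1 motif, found only in the Prdm1 stretch among these.
Lck, chr4:129558373-129558622: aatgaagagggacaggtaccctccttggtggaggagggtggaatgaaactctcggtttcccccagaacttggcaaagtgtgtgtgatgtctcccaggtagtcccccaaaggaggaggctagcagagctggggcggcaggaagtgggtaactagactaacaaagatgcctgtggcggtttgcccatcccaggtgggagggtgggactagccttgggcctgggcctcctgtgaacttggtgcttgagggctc
Runx1, chr16:92697330-92697579: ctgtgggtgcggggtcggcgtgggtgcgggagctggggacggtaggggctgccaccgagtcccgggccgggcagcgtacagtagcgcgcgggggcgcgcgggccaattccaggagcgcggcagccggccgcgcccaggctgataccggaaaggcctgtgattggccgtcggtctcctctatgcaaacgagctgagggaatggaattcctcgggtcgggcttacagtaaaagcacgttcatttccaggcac
Prdm1, chr10:44458749-44458998: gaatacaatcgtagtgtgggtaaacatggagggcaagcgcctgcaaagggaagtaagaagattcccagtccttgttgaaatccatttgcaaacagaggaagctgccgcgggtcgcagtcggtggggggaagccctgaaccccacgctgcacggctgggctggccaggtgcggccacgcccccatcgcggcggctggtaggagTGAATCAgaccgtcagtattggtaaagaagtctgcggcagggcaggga
The regions that hold them lay 9649, 95122 and 20839 bp from the nearest gene end for Lck, Runx1 and Prdm1, and the stretch open in all 12 libraries measured 746, 863 and 747 bp.

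MicroRNA hairpins, the folded precursors from which short regulatory RNAs are cut, overlapped 22 of the regions with 25 hairpins. Of these hairpins, 14 lay between the first and last base covered in every library. That span can hold uncovered bases. In the region of miR-9-1 it ran from 88215156 to 88215686, with 247 bp covered in every library. The mature strands below are shown because their precursors lie in or beside open chromatin in all 12 libraries and because the miR-5103 hairpin overlaps a region whose width in donor Treg is described further on. Capitals mark the seed, bases 2 to 8, and no pair of these strands shares one.
mmu-let-7i-5p: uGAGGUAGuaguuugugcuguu
mmu-miR-9-5p: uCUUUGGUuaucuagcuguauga
mmu-miR-155-5p: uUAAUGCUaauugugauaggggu
mmu-miR-5103: uCAUCCGGgauccccugagg
The let-7i hairpin lay inside chr10:122984796-122986830, which measured 1536 and 1553 bp in donor Treg, 1562 and 1528 bp in host pTreg, 1360 and 1434 bp in host tTreg, 1648 and 2035 bp in iTreg, 1603 and 1565 bp in donor Tconv, and 1372 and 1815 bp in host Tconv. The 6 in vivo regulatory libraries overlapped the 4 conventional ones there. The miR-9-1 hairpin lay inside chr3:88214907-88216082, which was between 300 bp (host tTreg replicate 1) and 1176 bp (iTreg replicate 2) wide. The miR-155 hairpin, whose product is induced in activated lymphocytes and needed for regulatory T cell fitness, overlapped chr16:84712909-84714430, which was between 805 bp (host Tconv replicate 1) and 1493 bp (host tTreg replicate 2) wide.

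The regions were spread over the genome, and their share inside genes was close to that of other distal regions. Of the 12034, 57.4% had their midpoint in the body of a protein-coding gene, against 56% of distal regions not open in every library, and 1191 lay more than 50 kb from any gene end and outside every gene. The share of distal regions that were open in all libraries was 22.9% at 1 to 5 kb from the nearest gene end, 20.3% at 5 to 20 kb, 18.7% at 20 to 50 kb, 16.9% at 50 to 100 kb and 14.2% beyond 100 kb. Among the numbered chromosomes and X, the share ran from 16.3% on chromosome 18 to 21.4% on chromosome 10. An end of a gene of another type lay within 1 kb of 11.8% of the regions, against 6.45% of other distal regions. At the distance threshold, 92 regions lay within the first 100 bp beyond 1 kb and had a median merged width of 1009.5 bp, and 78 constitutive regions that missed it by up to 100 bp had 1090 bp. Distal regions open in 11 of 12 libraries had a median merged width of 602 bp.

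In most regions the peaks of all 12 libraries had some bases in common. The merged regions had a median width of 940 bp, between 196 and 16527 bp. In 11923 of the 12034 at least 1 bp was covered by a peak of every library, and this common stretch reached 150 bp in 11100 and had a median of 352 bp. Every library had exactly 1 peak in 87.6% of the regions. In the 111 regions without a common base, neighbouring peaks of different libraries had been joined.

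Protein-coding genes with most constitutive distal regions were long genes. Each region was assigned to the gene that contained its midpoint or, between genes, to the closest gene end up to 50 kb away. At least 1 was given to 5546 genes, 3259 genes had exactly 1, and 50 genes had 10 or more, which held 602 regions in all. The bodies of those 50 genes had a median length of 194.5 kb, against 29.1 kb for all 12478 genes with any distal region. Inpp4b, a phosphatase of inositol lipids, and Foxp1, a factor that keeps T cells naive, had 19 each, of 62 and 84 distal regions. Akap13, a scaffold that anchors protein kinase A, had 18 of 63. Arhgef3, a guanine nucleotide exchange factor, had 16 of 43, and Bach2, a repressor that restrains effector differentiation, had 16 of 58. The protein kinase C genes Prkch and Prkce had 15 of 31 and 15 of 50.

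**Figure D1:**
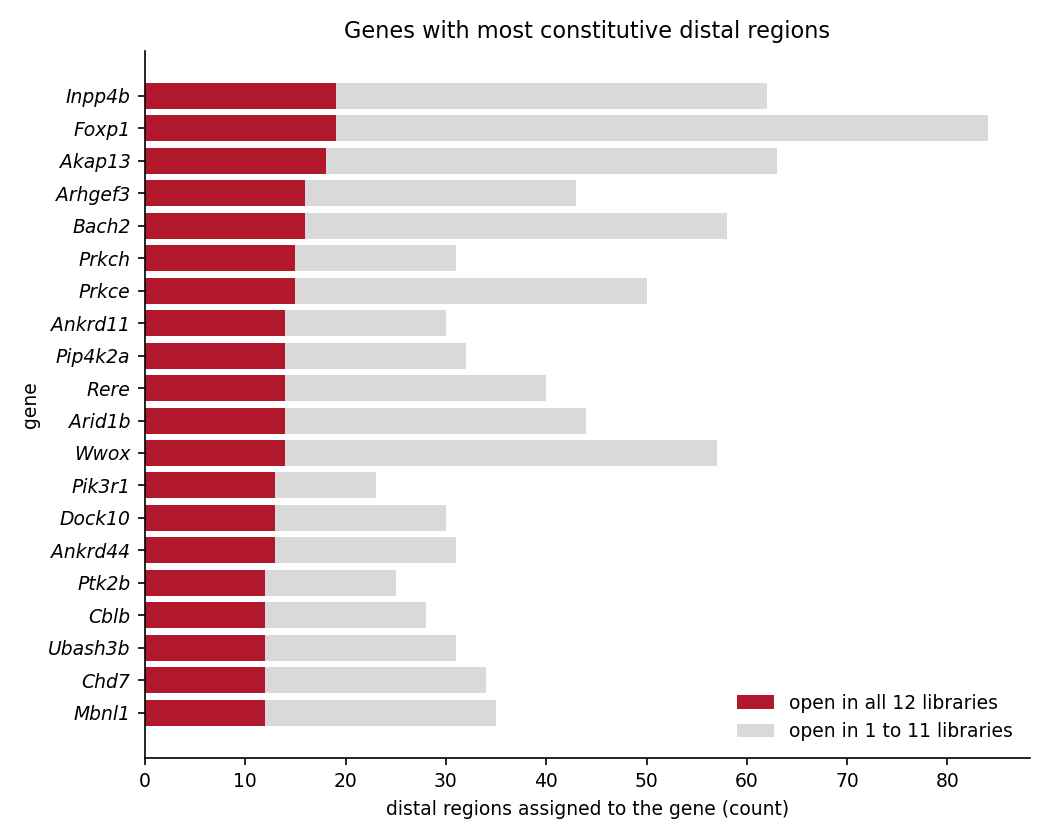
Number of distal regions assigned to each of the 20 protein-coding genes with most constitutive distal regions, split into regions with a peak in all 12 libraries (dark) and in 1 to 11 libraries (pale). Inpp4b and Foxp1 lead with 19 constitutive regions each, and the last of the 20 genes have 12.

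A further 5 of the 20 genes had 14 regions: Ankrd11 and Rere, which encode nuclear co-regulators, Arid1b, a subunit of the BAF remodelling complex, Pip4k2a, a lipid kinase, and Wwox, an oxidoreductase. Pik3r1, the regulatory subunit of PI3 kinase, Dock10, an exchange factor for Cdc42, and Ankrd44, a subunit of a phosphatase complex, had 13. Ptk2b (the kinase Pyk2), the E3 ligase Cblb and the phosphatase Ubash3b, both of which dampen antigen receptor signalling, the remodeller Chd7 and the splicing factor Mbnl1 had 12. Per length of gene body the order was different. Sema4b, a semaphorin, had 12.6 regions per 100 kb, Ralgds 12.502, Fam78a 12.05, the diacylglycerol kinase Dgkz 11.5 and Akna 11.4, and Pik3r1 (10.3) was the single gene among the 20 above that was also among the 10 with the highest density. Bcl11b, which fixes T cell identity, had 9.60 per 100 kb and 10 of its 18 distal regions were constitutive. Among genes with 10 or more distal regions, the highest share was found at B4galt1, where 70% were open in every library, followed by Crtc3 and Iqgap1 with 64.3% each, against 19.7% over all assigned distal regions. Counting gene bodies alone left 29 genes with 10 or more regions, and lists cut to equal length left 18. Assigning to gene ends up to 100 kb away gave 63 such genes and put Akap13 first with 20.

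Neighbouring constitutive regions formed runs. With gaps of up to 12500 bp, 42.7% of the regions fell in runs of 2 or more, and 110 runs had at least 5 regions. The longest runs had 9 regions each, in 59.4 kb at Mbnl1, 61.3 kb at Ankrd44, 62.2 kb at Pip4k2a, 72.5 kb beside Chd2, where 5 of the regions lay too far from a gene to be assigned, and 76.6 kb at Bcl11b. The widest single region, chr11:3180656-3197182 near Sfi1, was 16527 bp wide when merged and measured at least 15142 bp in every library. No region was removed here for doubtful mapping of reads, and the mapping at this region was not tested. Other wide regions were chr2:58153248-58162348 near Cytip, an adhesion regulator of lymphocytes, with a merged width of 9101 bp, chr6:41539808-41547933 over the constant and joining segments of the T cell receptor beta locus with 8126 bp, and chr19:5840038-5847636 over the long non-coding RNA gene Neat1 with 7599 bp.

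The share of distal regions that were constitutive differed between gene lists, around 19.7% over all protein-coding genes. Of distal regions at 18 genes of T cell identity, 33.5% were constitutive (91 of 272), and the share was 33.5% (87 of 260) at 18 genes of T cell receptor signalling. It was 26% at 14 genes of naive T cells and quiescence, 26.1% at 15 effector helper genes, 25% at 12 migration genes and 24.3% (41 of 169) at 16 regulatory T cell genes. It was 17.9% (15 of 84) at 14 genes of chromatin and nuclear organisation. At 22 genes of other blood lineages it was 13.7% (10 of 73), and at 14 genes of non-blood tissues 6.67% (1 of 15). Runx1 and Tox had 11 constitutive regions each, Bcl11b and Ikzf1 10, Cblb and Fyn 12, Prkcq 10 and Rora 11. Foxp3, the defining factor of regulatory T cells, had 0 of 4 distal regions in the class. These shares describe the rule and carry no test.

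The regions were narrower than constitutive regions at gene ends in every library. A region's width in a library was the total length of that library's peaks inside it. The median width was 539 and 566 bp in donor Treg, 628 and 517 bp in host pTreg, 431 and 569 bp in host tTreg, 711 and 778 bp in iTreg, 754 and 686 bp in donor Tconv, and 531 and 744 bp in host Tconv. As group means this was 552.5 ± 19.1 bp in donor Treg, 572.5 ± 78.5 bp in host pTreg, 500 ± 97.6 bp in host tTreg, 744.5 ± 47.4 bp in iTreg, 720 ± 48.1 bp in donor Tconv and 637.5 ± 151 bp in host Tconv (SD, n = 2 each). The iTreg libraries were among the widest and host tTreg replicate 1 was the narrowest. Constitutive gene-end regions had medians of 840 to 1399 bp, and distal regions not open in every library 245 to 329 bp. The ratio of the median widths of constitutive distal and gene-end regions lay between 0.510 and 0.613, below 1 in 12 of 12 libraries. A two-sided exact permutation test by sign flips gave p = 0.000488, the smallest it can give (adjusted p = 0.00342 over 7 library-level tests). The 1 kb was counted from the region's edge, so a wider region reached a gene end more readily. Width thus helped to form the classes. Each library also measured the same regions, so this test cannot decide whether distance from gene ends goes with width.

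**Figure D2:**
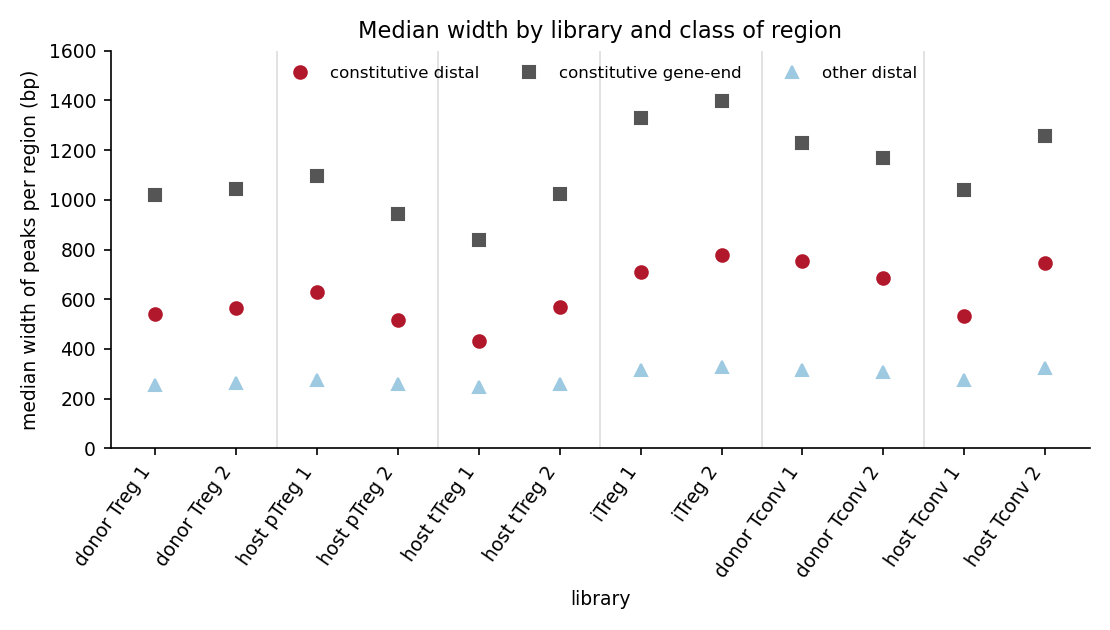
Median width in bp of constitutive distal regions (circles), constitutive gene-end regions (squares) and other distal regions (triangles) in each of the 12 libraries, ordered by group. Constitutive distal medians run from 431 bp in host tTreg replicate 1 to 778 bp in iTreg replicate 2, and lie below the gene-end medians in every library.

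Donor Treg medians lay below both donor Tconv and both iTreg medians, whereas the pooled in vivo regulatory and conventional libraries overlapped. The 6 in vivo regulatory libraries were lower than the 4 conventional libraries by 0.32 on the log2 scale on average (0.80-fold), with 2 of 6 below all 4, and this difference did not pass (two-sided exact permutation test, p = 0.0571, adjusted p = 0.2). Without host Tconv replicate 1 the difference was -0.435 with an adjusted p of 0.0278 by the same permutation test. The iTreg libraries exceeded the 10 in vivo libraries by 0.34 (permutation p = 0.136, adjusted p = 0.317), and donor Treg differed from the 4 conventional libraries that carry the same run code in their names by -0.28 (permutation p = 0.333, where 15 splits allow no less than 0.0667). The ratio to gene-end regions differed by -0.08, -0.03 and -0.10 on the log2 scale in these 3 comparisons (adjusted permutation p = 0.317, 0.712 and 0.467). Without host Tconv replicate 1 the ratio differed by -0.136 between in vivo regulatory and conventional libraries (adjusted permutation p = 0.0278). Across all alternatives to the library-level tests, only these 2 results, for median width and ratio, newly passed, both with that library left out. Median width moved with list length: iTreg had 60782 ± 3429 peaks and in vivo regulatory groups 32111.5 to 35409.5 on average, against 45771.5 ± 2010 in donor Tconv and 40757.5 ± 5243 in host Tconv (SD, n = 2). The part of list length in width was not tested. For single regions, widths were therefore centred at each library's median over all 21435 constitutive regions, and the changes below are relative to that median.

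Donor Treg were compared with donor Tconv, the transferred cells that had and had not converted. The library names hold a number, which was lower in both donor Treg libraries than in both donor Tconv libraries. Conversion therefore cannot be told apart here from what that number stands for. Of the 12034 regions, 152 were wider and 435 narrower in donor Treg (limma on log2 width, Benjamini-Hochberg adjusted p under 0.05), where 0.877% and 2.47% of all 21435 regions tested were called in these directions. Of the 9401 gene-end regions, 36 were wider and 94 narrower. Centred widths of donor Treg and donor Tconv did not overlap at any of the 152 and 435 regions. The same held for every region called in the other comparisons of 2 libraries with 2, so it adds no support. Without centring, which shifts the median of all tested regions by -0.228, 6 were wider and 294 narrower, and after quantile normalization 296 and 484. The counts were 45 and 113 without donor Treg replicate 1, 53 and 236 without donor Treg replicate 2, 30 and 46 without donor Tconv replicate 1, and 28 and 84 without donor Tconv replicate 2. Without host tTreg replicate 1 and host Tconv replicate 1 together they were 281 and 697.

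The leading wider region in donor Treg was at Ikzf2, which encodes Helios, a factor of the Ikaros family that is high in many regulatory T cells. Its region chr1:69543991-69545872 measured 1739 and 1874 bp in donor Treg, against 492 and 510 bp in donor Tconv. It was wide in 1 library each of host pTreg (1701 and 641 bp) and host tTreg (708 and 1726 bp), and narrow in iTreg (438 and 497 bp). The log2 difference between donor Treg and donor Tconv was 2.15 (SE 0.35, limma adjusted p = 0.0106), and it passed in 4 of 9 alternatives (adjusted p from 0.00882 to 0.0944). A second Ikzf2 region, chr1:69679538-69681608, measured 1898 and 1902 bp in donor Treg, against 881 and 393 bp in donor Tconv (log2 1.99, limma adjusted p = 0.0144, passing in 5 of 9 alternatives). Both donor Treg libraries exceeded both donor Tconv libraries at each of the pair. The others among the 5 leading regions lay in Tmprss6, near Tmem18 and in Arhgap15.

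Of the 5 leading narrower regions, those near Tgfbr3 and Ccdc115 and a region far from genes passed in 9 of 9 alternatives, and those in Lmntd1 and Sik3 in 5 of 9. At chr5:107078334-107080598, 25969 bp from Tgfbr3, which encodes the TGF-beta co-receptor betaglycan, the width was 318 and 352 bp in donor Treg, against 2254 and 2160 bp in donor Tconv. The log2 difference was -2.43 (SE 0.13, limma adjusted p = 4.93e-05). At chr1:34433034-34435458, which lies 1212 bp from Ccdc115 and overlaps the miR-5103 hairpin printed above, the width was 316 and 281 bp in donor Treg, against 2190 and 1967 bp in donor Tconv (log2 -2.50, SE 0.18, limma adjusted p = 0.000385). It was at least 764 bp wide in every other library, with 2109 and 1759 bp in host pTreg, 764 and 1043 bp in host tTreg, 2421 and 2351 bp in iTreg, and 1105 and 2209 bp in host Tconv. Donor Treg also differed there from the host regulatory libraries (log2 -2.21, limma adjusted p = 0.000946, passing in 12 of 12 alternatives). A region far from any gene, chr12:61994052-61995292, had 218 and 189 bp in donor Treg, against 1164 and 966 bp in donor Tconv (log2 -2.09, limma adjusted p = 0.00297).

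**Figure D3:**
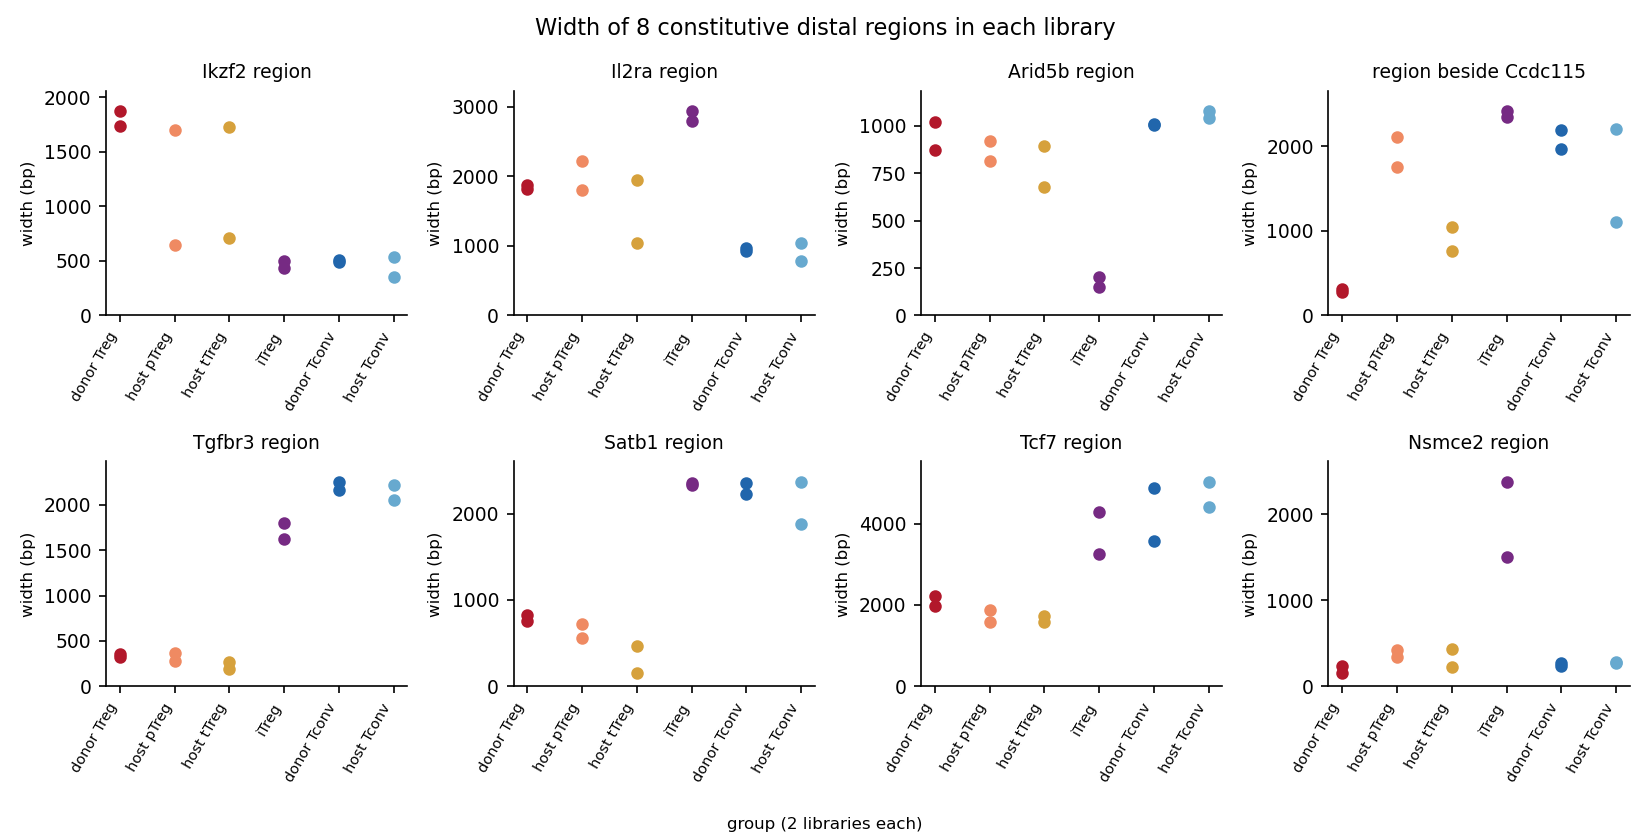
Width in bp of 8 constitutive distal regions in each library, by group, with 1 point per library. The region in Ikzf2 is 1 of 3 at that gene, and need not be one described in the text. Their log2 differences in in vivo regulatory over conventional libraries were 1.74, 1.03 and 1.82. The region near Il2ra is wider in donor Treg than in both conventional groups. Those at Tgfbr3, Satb1 and Tcf7 are narrower in all in vivo regulatory groups. The one beside Ccdc115 is narrow in donor Treg alone among the groups, and those in Arid5b and Nsmce2 stand out in iTreg.

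Among the gene lists, 4 of the 41 regions of regulatory T cell genes were wider in donor Treg and 0 narrower, with a median log2 difference of 0.35, against 0.01 over all 12034, of which 1.26% were wider and 3.61% narrower. The 4 lay at Ikzf2 (both regions above), Ctla4 and Il2ra. Il2ra encodes CD25, on which these groups were sorted, so its region is no finding between them. Of the 77 regions of naive and quiescence genes, 1 was wider and 11 narrower (median log2 -0.14). The narrower ones included chr11:99130701-99132837 near Ccr7, a homing receptor of naive T cells, with 600 and 796 bp in donor Treg, against 2137 and 2089 bp in donor Tconv (log2 -1.32, limma adjusted p = 0.0131, passing in 6 of 9 alternatives). They also included 3 of the 19 Foxp1 regions and 2 of the 16 Bach2 regions. Without centring these counts were 0 wider for the regulatory list and 6 narrower for the naive list. Without donor Tconv replicate 1 or replicate 2, the naive list had 0 narrower regions and the regulatory list 2 and 1 wider ones. Without donor Treg replicate 1 or replicate 2 the regulatory list had 1 wider in each case and the naive list 2 and 6 narrower, and without either iTreg library, which enters only through the shared spread, the naive list had 6. Of the 91 regions of T cell identity genes, 2 were wider and 4 narrower. A wider one, chr4:6747870-6748764 in Tox, had 883 and 687 bp in donor Treg, against 392 and 485 bp in donor Tconv (log2 1.13, limma adjusted p = 0.0345, with 0.0627 without centring). Narrower ones lay in Ikzf1 and Runx1. The region chr11:11719271-11721738 in Ikzf1, which encodes Ikaros, had 270 and 317 bp in donor Treg, against 1338 and 1296 bp in donor Tconv (log2 -1.87, limma adjusted p = 0.00596). In Runx1, chr16:92786313-92787513 had 282 and 249 bp in donor Treg, against 1132 and 1079 bp in donor Tconv (log2 -1.76, limma adjusted p = 0.00608). The Ikzf1 and Runx1 regions each passed in 8 of 9 alternatives.

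All 6 in vivo regulatory libraries were then set against the 4 conventional ones. Of the 12034 regions, 1648 were wider and 1674 narrower in the regulatory libraries, where 10.1% and 10.5% of all tested regions were called, and 13.7% and 13.9% of the constitutive distal ones. The median change of called regions was 0.50 and -0.60 on the log2 scale. Centred widths did not overlap between the groups at 1136 of the 1648 wider and 965 of the 1674 narrower regions. The share without overlap over all tested regions was not counted. The calls were made from the same widths, so these counts add no support. The host regulatory libraries carry another run code, and all 6 regulatory libraries have a lower number in their names than the conventional ones, so that this comparison cannot be told apart from the run and from what that number stands for. With donor Treg alone against the conventional libraries, all of run code BW13, 421 were wider and 684 narrower, and 398 and 599 of these were called in both fits. Within that run code too, the number in the names was lower in donor Treg. Without centring, which shifts the median of all tested regions by -0.244, 275 were wider and 3176 narrower. The counts were 1041 and 1057 without donor Tconv replicate 1, 1043 and 1159 without donor Tconv replicate 2, and 1442 and 1622 without host tTreg replicate 1 and host Tconv replicate 1 together.

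**Figure D4:**
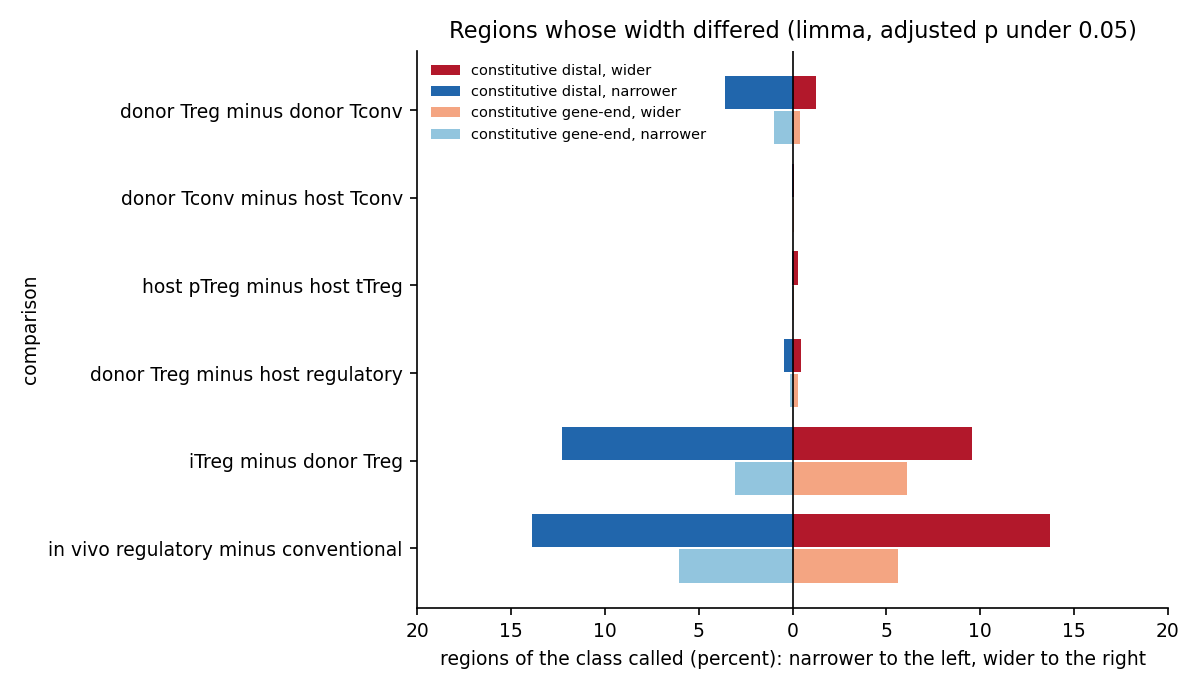
Percent of constitutive distal regions (dark) and of constitutive gene-end regions (pale) called wider (right of 0) or narrower (left of 0) in each of 6 comparisons, with the first-named group over the second. In vivo regulatory against conventional libraries gives 13.7% and 13.9% of constitutive distal regions, and donor Tconv against host Tconv fewer than 0.1% in each direction.

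Regulatory T cell genes stood on the wider side and naive genes on the narrower side. Of the 41 regions of the regulatory list, 25 were wider and 1 narrower, with a median log2 difference of 0.37. The 25 were found at Ctla4, Icos, Ikzf2, Ikzf4, Il2ra, Il2rb, Itgae, Itgb8, Nrp1, Tigit and Tnfrsf18, and the narrower one at Prdm1. Il2ra and Ctla4, and Nrp1 between host groups, were used in the sorts. The list had 7 wider without centring and 11 in donor Treg against conventional libraries of one run code. Of the 77 regions of the naive list, 5 were wider and 30 narrower (median log2 -0.27), with 40 narrower without centring and 16 in donor Treg within one run code. Without host tTreg replicate 1 and host Tconv replicate 1, the regulatory list had 22 wider and 1 narrower and the naive list 5 wider and 33 narrower. Effector helper genes had 11 wider and 2 narrower of 40 regions (2 wider and 4 narrower without centring, where their median turned to -0.20), T cell identity genes 8 wider and 18 narrower of 91, and T cell receptor signalling genes 9 wider and 15 narrower of 87. Earlier results of these data were known when the lists were made, so these counts are a description beside the 13.7% and 13.9% of all constitutive distal regions.

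**Figure D5:**
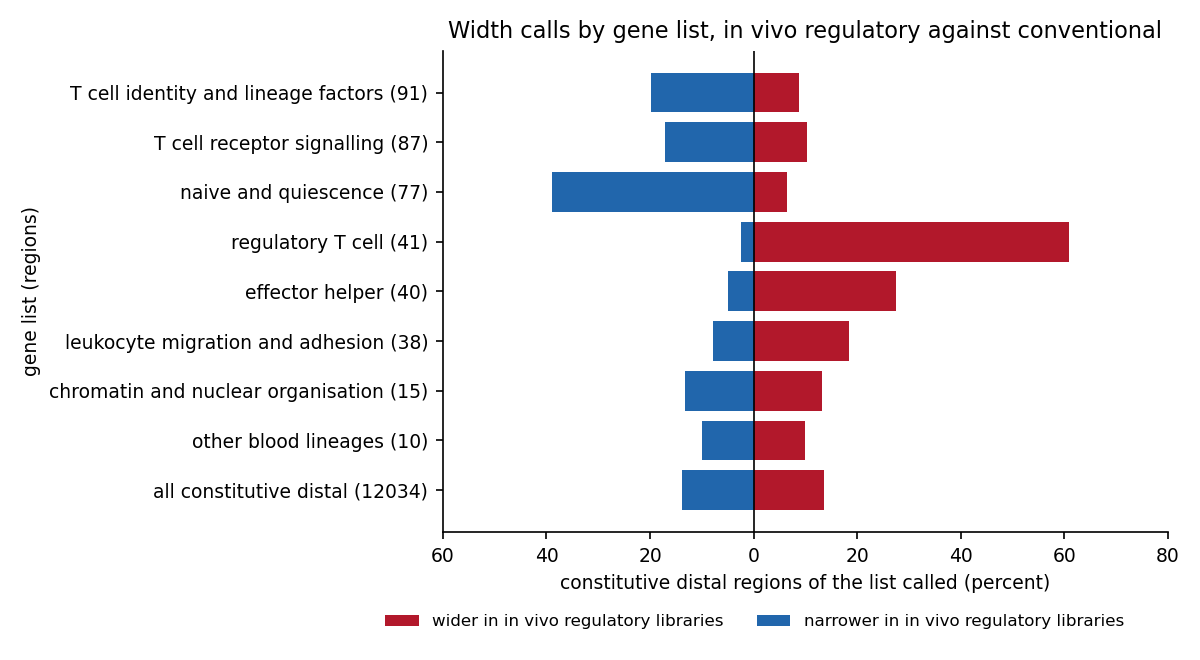
Percent of the constitutive distal regions of each gene list called wider (right) or narrower (left) in in vivo regulatory over conventional libraries, with the number of regions of each list in brackets. The regulatory T cell list has 25 of 41 regions wider and the naive list 30 of 77 narrower, and lists with fewer than 10 regions are not drawn.

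The region near Tgfbr3 had the most negative log2 difference in this comparison. It measured 364 and 275 bp in host pTreg, 188 and 265 bp in host tTreg and 318 and 352 bp in donor Treg, against 2254 and 2160 bp in donor Tconv and 2057 and 2216 bp in host Tconv. The iTreg, with 1619 and 1801 bp, lay near the conventional libraries. The log2 difference between in vivo regulatory and conventional libraries was -2.64 (SE 0.08, limma adjusted p = 2.37e-07), and it passed in 16 of 16 alternatives. In the body of Wwox, chr8:114814823-114817709 measured 785 and 789 bp in donor Treg, 528 and 446 bp in host pTreg and 527 and 490 bp in host tTreg, against 2797 and 2535 bp in donor Tconv and 2196 and 2849 bp in host Tconv (log2 -1.87, limma adjusted p = 4.87e-06). Near Satb1, which encodes a chromatin organiser of T cells, chr17:51878831-51881284 measured 825 and 751 bp in donor Treg, 720 and 557 bp in host pTreg and 150 and 463 bp in host tTreg, against 2361 and 2231 bp in donor Tconv and 1877 and 2369 bp in host Tconv (log2 -1.83, limma adjusted p = 0.000192). The value of 150 bp is the smallest peak length in the lists, and this region is one of those without a base covered in every library. Regions in Dip2b and Rapgef4 completed the 5 leading narrower ones.

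Tcf7, which encodes TCF-1 of naive and memory T cells, had 3 of 3 constitutive regions narrower in regulatory libraries. The widest of them, chr11:52264810-52269903, measured 1971 and 2231 bp in donor Treg, 1880 and 1577 bp in host pTreg and 1582 and 1729 bp in host tTreg, against 4870 and 3563 bp in donor Tconv and 4409 and 5030 bp in host Tconv (log2 -1.004, limma adjusted p = 0.000151). At Bach2, 7 of 16 regions were narrower and 2 wider, and at Foxp1, 5 of 19 were narrower and 1 wider. The genes with most constitutive regions did not all move this way. Inpp4b had 3 wider and 2 narrower of 19, Arhgef3 1 and 1 of 16, Ptk2b 0 and 0 of 12, and Rere 2 wider and 8 narrower of 14.

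On the wider side, chr2:44344829-44345763 in Arhgap15, a Rac regulator of leukocyte movement, measured 752 and 848 bp in donor Treg, 934 and 862 bp in host pTreg and 728 and 877 bp in host tTreg, against 491 and 150 bp in donor Tconv and 150 and 150 bp in host Tconv (log2 2.32, SE 0.28, limma adjusted p = 0.000343). The Ikzf2 region chr1:69543991-69545872 was wider in all 6 regulatory libraries than in any conventional one (log2 1.74, limma adjusted p = 0.000545). The Il2ra region chr2:11634749-11637685, at a gene whose product was sorted on, measured 1820 and 1876 bp in donor Treg, 2216 and 1802 bp in host pTreg and 1039 and 1952 bp in host tTreg, against 970 and 929 bp in donor Tconv and 779 and 1039 bp in host Tconv. Host tTreg replicate 1 and host Tconv replicate 2 had the same width there. Regions in Tmprss6, near Tmem18 and in Impa2 and a region far from any gene, chr4:95215008-95216459, were also among the 5 leading ones, and these 4 passed in 16 of 16 alternatives.

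The iTreg were compared with donor Treg, regulatory cells made in culture against those made in the animal. Of the 12034 regions, 1150 were wider and 1482 narrower in iTreg, where 8.04% and 8.26% of all tested regions were called. The iTreg libraries carry no run code, so this comparison cannot be told apart from the run. Without centring, which shifts the median of all tested regions by 0.346, 2279 were wider and 237 narrower. The counts were 516 and 647 without iTreg replicate 1, 456 and 730 without iTreg replicate 2, 516 and 661 without donor Treg replicate 1, and 666 and 696 without donor Treg replicate 2. Over all constitutive distal regions 9.56% were wider and 12.3% narrower. Effector helper genes had 1 wider and 12 narrower of 40 regions (median log2 -0.27), and migration genes 2 and 10 of 38 (median -0.28). T cell identity genes had 7 and 19 of 91, T cell receptor signalling genes 5 and 14 of 87, and naive genes 9 and 8 of 77. Of the regulatory list, 4 regions were wider and 15 narrower of 41, and their median log2 difference was -0.27. Without centring it was 10 wider and 3 narrower with a median of 0.15. The number narrower was 9 and 4 without iTreg replicate 1 and replicate 2, and 5 and 6 without donor Treg replicate 1 and replicate 2.

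The leading narrower regions lay at Clec2d, Arid5b, Ikzf2, Otogl and Tox. In Arid5b, chr10:68153645-68154814 measured 203 and 150 bp in iTreg, against 873 and 1019 bp in donor Treg (log2 -2.85, SE 0.18, limma adjusted p = 3.6e-05), and it was between 676 and 1079 bp wide in every other library. Near Clec2d, the ligand of a natural killer receptor, chr6:129218889-129220455 measured 189 and 251 bp in iTreg, against 1437 and 1491 bp in donor Treg (log2 -3.16, limma adjusted p = 0.000629). The Ikzf2 region chr1:69679538-69681608 had 385 and 400 bp in iTreg, against 1898 and 1902 bp in donor Treg (log2 -2.69, limma adjusted p = 0.000929). In Tox, a factor of T cell development and exhaustion, chr4:6747870-6748764 had 201 and 150 bp in iTreg, against 883 and 687 bp in donor Treg (log2 -2.58, limma adjusted p = 2e-04). Of the other leading regions named here, those at Clec2d, Arhgap15, Nsmce2, Lmntd1, Tmcc1 and Cacna1e and chr4:95215008-95216459 also have no base covered in every library. The regions described at Arid5b, Clec2d, Ikzf2 and Tox passed in 9 of 9 alternatives.

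Wider regions in iTreg lay at Nsmce2, Selenof, Ccdc115, Tmcc1 and Cacna1e. In Nsmce2, which encodes a SUMO ligase of genome maintenance, chr15:59480071-59482446 measured 1499 and 2374 bp in iTreg, against 150 and 234 bp in donor Treg (log2 2.92, SE 0.29, limma adjusted p = 0.000233). It was at most 428 bp wide in the 8 other libraries. At Foxp1, 3 of 19 regions were wider in iTreg and 0 narrower. One of them, chr6:99283076-99284845, measured 1625 and 1687 bp in iTreg, against 581 and 573 bp in donor Treg (log2 1.11, limma adjusted p = 0.00236). The Il7r region chr15:9532621-9534162, at the receptor for a survival cytokine, went the other way with 590 and 669 bp in iTreg, against 1370 and 1531 bp in donor Treg (log2 -1.62, limma adjusted p = 0.000708).

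Groups of like cells differed at few regions. The number in the names was 43000 and 42000 in donor Tconv, against 50000 and 50000 in host Tconv. Their comparison cannot be told apart from what that number stands for. Between donor Tconv and host Tconv, 12 regions were wider and 1 narrower in donor Tconv, where 0.084% and 0.00467% of all tested regions were called. At an unadjusted p under 0.05 there were 767 and 186. At the pair with the smallest p, host Tconv stood apart from every other group. A region far from genes, chr14:100459000-100460278, measured 1084 and 1089 bp in donor Tconv, against 238 and 286 bp in host Tconv, and between 1080 and 1223 bp in the 8 regulatory libraries (log2 1.93, SE 0.14, limma adjusted p = 0.000551). Near Zswim4, chr8:84200033-84204881 measured 3782 and 3747 bp in donor Tconv, against 1079 and 1218 bp in host Tconv, and at least 3739 bp in every regulatory library (log2 1.59, SE 0.12, limma adjusted p = 0.000551). Both passed in 10 of 10 alternatives. The counts were 3 and 0 without centring, and also 3 and 0 in a fit to these groups alone. They were 2 and 0 without either donor Tconv library, 5 and 12 when host Tconv replicate 1 was left out, and 236 and 3 when host Tconv replicate 2 was left out. The narrower count was 3 without either host pTreg library, and 15 without host tTreg replicate 1 and host Tconv replicate 1 together.

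Between host pTreg and host tTreg, which were sorted on Nrp1, 33 regions were wider and 6 narrower in host pTreg, where 0.182% and 0.0327% of all tested regions were called (740 and 449 at an unadjusted p under 0.05). In Abcb1b, which encodes a drug efflux pump, chr5:8838816-8840179 measured 1219 and 843 bp in host pTreg, against 207 and 299 bp in host tTreg (log2 1.85, SE 0.17, limma adjusted p = 0.00782), but the limma adjusted p was 0.0659 without centring. Fitting these groups alone gave 0 and 0. The counts without centring were 1 and 0, and after quantile normalization 18 and 9. Leaving out host pTreg replicate 1 gave 5 and 8, and leaving out host pTreg replicate 2 gave 4 and 1. The counts were 21 and 7 without host tTreg replicate 1, 276 and 16 without host tTreg replicate 2, 2 and 0 without either donor Tconv library, 20 and 5 without either host Tconv library, and 18 and 4 without either iTreg library.

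Donor Treg and the 4 host regulatory libraries differed at 55 wider and 52 narrower regions, where 0.373% and 0.308% of all tested regions were called. These groups carry different run codes and different numbers in their names. In Zfp516, chr18:82912990-82915136 measured 2002 and 1955 bp in donor Treg, against 533 and 649 bp in host pTreg and 527 and 917 bp in host tTreg (log2 1.55, SE 0.18, limma adjusted p = 0.005). It was at least 1678 bp wide in iTreg and in all conventional libraries, so donor Treg stood with these. The Bach2 region chr4:32280379-32282022 measured 846 and 877 bp in donor Treg, against 539 and 289 bp in host pTreg and 229 and 271 bp in host tTreg (log2 1.38, limma adjusted p = 0.00752, passing in 8 of 12 alternatives, with 0.145 without centring). Over all regions the counts were 4 and 3 without centring, 12 and 15 in a fit to these groups alone, and 120 and 146 with host tTreg replicate 1 and host Tconv replicate 1 both left out. The counts were 14 and 14 without donor Treg replicate 1, 7 and 12 without donor Treg replicate 2, 87 and 100 without host tTreg replicate 1, and 158 and 67 without host tTreg replicate 2. They were 105 and 53 without host pTreg replicate 1, 32 and 25 without host pTreg replicate 2, 29 and 28 without either donor Tconv library, and 36 and 31 without either iTreg library.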

How the data were processed

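Open chromatin was measured by ATAC-seq in 12 libraries of mouse CD4 T cells. Each library had 1 list of peaks deposited by the authors, with chromosome, start, end, name and a score that was 1000 for every peak, so the deposited score was not used. Among tools, the submitters' processing notes name Bowtie2 2.3.3, HOMER 4.10 and bedtools, and as build mm10. Their roles, any shift of reads for the transposase, the meaning of an intersection in the lists' names and the number of reads are not stated in the sources used here, so depth is unknown.

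Groups came from the sample titles. Genes were those of a RefSeq table of GRCm38.p6, which shares its coordinates with mm10. It has no strand, so distances were taken to both gene ends. Promoter windows and miRNAs are RefSeq sequences of the same assembly. No genome was used, so motifs were searched in promoter windows only. Coordinates count from 1. Each region's log2 width was fitted with limma 3.58.1 in R 4.3.3, with 6 group means, p adjusted over 21435 regions, after tests on simulated data. Library medians were compared by two-sided exact permutation tests, adjusted over 7 tests. Regions were named as the 5 in each direction with the largest log2 difference among those past 0.05 whose groups did not overlap, genes as the 20 with most regions, the 10 with most per 100 kb (5 or more in the body) and the 10 with the highest share (10 or more distal regions), and, at listed genes, regions that changed by at least 1 on the log2 scale, some of them picked after their values were seen. The regions, lists and tests were chosen with earlier results of these data known. Alternatives were other distances, minimum widths, equal list lengths, other scalings, a replicate block and leaving out libraries.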

Additional observations from a re-analysis of the deposited data

How the results depend on the processing

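The number of constitutive distal regions was 7639 with peaks of 300 bp or wider only and 7814 with lists of equal length, against 12034, and 12052 to 13191 when 1 library was left out. Genes with 10 or more were 29 by gene body and 18 with equal lists, against 50. Leaving out 1 library gave log2 differences in median width of -0.435 to -0.257 (in vivo regulatory over conventional), 0.273 to 0.403 (iTreg over in vivo) and -0.397 to -0.229 (donor Treg over conventional of its run code). For the ratio to gene-end regions it gave -0.136 to -0.048, -0.0525 to 0.00226 and -0.159 to -0.0705, and -0.866 to -0.842 over all libraries. The value 0.00226, without iTreg replicate 1, has the opposite sign to the -0.0251 of all libraries, and the cause was not tested.

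The counts of wider and narrower regions below are given in that order for each comparison. Without centring, 6 and 294 regions were called for donor Treg over donor Tconv, 3 and 0 for donor Tconv over host Tconv, 1 and 0 for host pTreg over host tTreg, 4 and 3 for donor Treg over host regulatory, 2279 and 237 for iTreg over donor Treg, and 275 and 3176 for in vivo regulatory over conventional. With quantile normalization the wider counts were 296 for donor Treg over donor Tconv and 18 for host pTreg over host tTreg, and with the widest peak alone 2 regions were narrower in donor Tconv. Fits to the compared groups alone gave 3 and 0 for donor Tconv over host Tconv, 0 and 0 for host pTreg over host tTreg, and 12 and 15 for donor Treg over host regulatory. Without host tTreg replicate 1 and host Tconv replicate 1, chosen after seeing the data, they were 281 and 697 for donor Treg over donor Tconv, 120 and 146 for donor Treg over host regulatory, 1501 and 2008 for iTreg over donor Treg, 20 wider for host pTreg, and 15 narrower for donor Tconv over host Tconv. With run code BW13 alone, also chosen after seeing the data, 421 and 684 were called for donor Treg over conventional. Leaving out 1 library gave 28 to 212 and 46 to 547, 2 to 236 and 0 to 12, 2 to 276 and 0 to 16, 7 to 158 and 12 to 100, 456 to 1299 and 647 to 1670, and 1041 to 1715 and 1057 to 1890, in the order of comparisons used for centring. In those fits a group with 1 library left is assumed to vary like the other groups.

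Of the regulatory list, in vivo, 7 were wider without centring, 11 in run code BW13 and 17 to 26 without 1 library, and of the naive list 16 were narrower in run code BW13 and 26 to 33 without 1 library. In donor Treg over donor Tconv the regulatory list had 0 wider without centring, 7 with a trend, 7 without the 2 narrow libraries and 1 to 6 without 1 library, and the naive list had 6 narrower without centring and 0 to 14 without 1 library. In iTreg, 3 of the regulatory list were narrower without centring and 4 to 16 without 1 library.

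The replicate numbers of the sample titles, which differ from the numbers in some descriptions, were not shown to pair libraries: same-numbered libraries had correlations of -0.0261, -0.175 and -0.184 in their deviations. With a replicate block, 19 regions were wider in host pTreg, against 33 without it. Of 136 regions followed by name, 67 passed in every alternative, 50 lost their call without centring and 4 with the block, and none changed direction. Read depth is unknown, and no peak is under 150 bp, which bounds the narrowest widths.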
